A study of Mus musculus with 4 samples.

Results

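The comparison set the gastric corpus 1 day after L635 against the untreated corpus. It held 2 of the 4 libraries of the series, with 1 library a side, and 17823 of the 38732 cells. A cell was a barcode with 500 or more UMIs (molecules counted once each) and 200 or more genes, of whose UMIs no more than 50% were mitochondrial, which left 13897 untreated cells and 3926 cells at day 1. All mice were wild-type C57BL6/J animals aged 6 to 7 weeks. The untreated group was given PBS, and the injured groups a single oral dose of 350 mg/kg L635, a compound that injures acid-secreting parietal cells. The 2 other libraries, taken at day 3 after L635 without and with amphiregulin (AREG, a ligand of the EGF receptor), stand beside the comparison as a range, and levels over the 4 libraries are given in the order untreated, day 1, day 3, day 3 with AREG. The labels state neither how many mice went into a library nor the dose and route of AREG.

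Parietal cells make hydrochloric acid with the H,K-ATPase, a proton pump of an alpha subunit (Atp4a) and a beta subunit (Atp4b). They are packed with mitochondria that supply the pump with ATP, and they carry potassium and chloride channels that complete acid secretion. When they are lost, chief cells and neck cells change their programs and the surface pit cells expand, a state known as pyloric or spasmolytic polypeptide-expressing metaplasia. Epithelium under oxidative or electrophilic stress uses the transcription factor NRF2 (Nfe2l2), which is held back by KEAP1 in resting cells and, once released, binds antioxidant response elements near genes of glutathione and thioredoxin metabolism.

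Cells in which Atp4a and Atp4b made up at least 50 of every 10000 UMIs were taken as parietal cells. They numbered 4470 of the untreated cells, or 32.2% (exact binomial 95% interval 31.4 to 32.9), and 298 of the day 1 cells, or 7.59% (6.78 to 8.46). The shares at day 3 were 27.2% without AREG and 27.7% with it, so that the day 1 library was the lowest of the 4. Near the limit lay 72 untreated and 22 day 1 cells between 40 and 50 per 10000, and 75 and 22 cells between 50 and 60. At day 1 a further 39 cells lay between 25 and 40 and 63 between 60 and 100, so no gap marked the limit there. Whether the lower day 1 share came from fewer parietal cells or from less pump RNA per cell was not tested. The parietal cells still found at day 1 were deeper than the untreated ones, with a median of 4355 against 1829.5 UMIs, and had a like mitochondrial share, with a median of 13.5% against 14.7%. The pit cell products Tff1, Gkn1, Gkn2 and Muc5ac together made up a median of 47.8 of 10000 UMIs in them, against 80.9 in untreated parietal cells and 852 in the other day 1 cells. Their own pump level had a median of 147 against 297 of 10000 UMIs. That value chose the cells and is not read as a result within them. Intervals here and below cover counting error only, and no test between the groups is possible with 1 library a side.

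**Figure D1:**
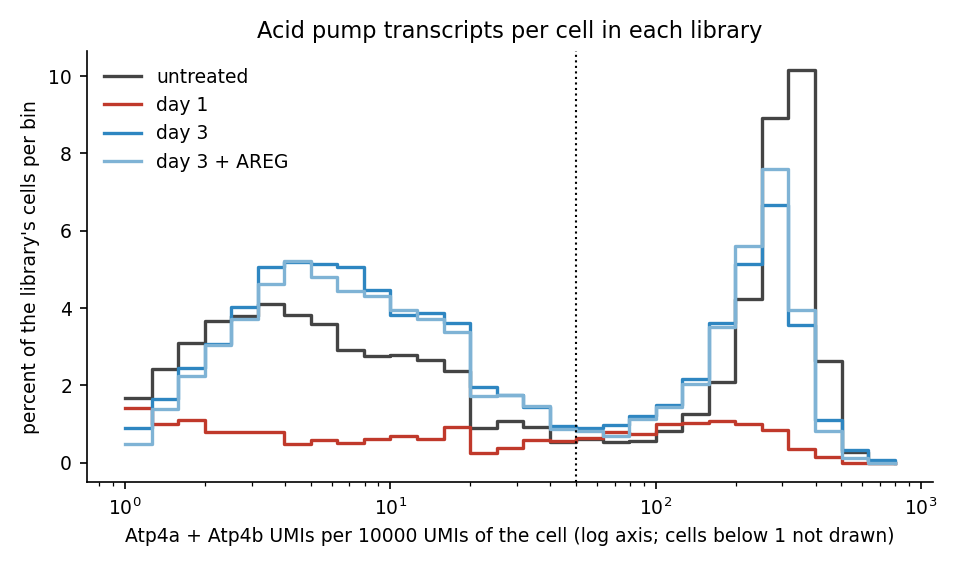
Share of cells per bin (vertical axis, percent) by their Atp4a and Atp4b UMIs per 10000 (horizontal log axis, cells below 1 not drawn) in each of the 4 libraries, with the limit for parietal cells as a dotted line at 50. The day 1 library has 7.59% of its cells at or above the limit, against 27.2% to 32.2% in the 3 other libraries.

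The 4 libraries held 56007532 to 98893436 UMIs, the day 1 library the fewest. At day 1, 129 cells over 50000 UMIs held 28.2% of the UMIs in cells, against 44 cells and 4.34% in the untreated library. In all cells the 20 genes with the most UMIs took 46.1% of the untreated total and 29.4% of the day 1 total. Blood cell, red cell and forestomach markers were near 0 in both libraries, with summed levels of at most 10.9 UMIs per 1000000 (CPM). Between 0 and 3 barcodes were shared by any pair of libraries.

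A set of barcodes stood apart within the day 1 library. In 157 barcodes, or 4.0% of day 1 cells (3.41 to 4.66), Nbea (neurobeachin) and Lsamp (a neural adhesion molecule) together passed 100 of 10000 UMIs, and no barcode of the 3 other libraries did. They had a median of 1578 UMIs, 0.0718% mitochondrial and 0.977% ribosomal protein UMIs, against 11.1% ribosomal protein UMIs over all day 1 cells. In all cells, Nbea stood at 5.37 CPM untreated and 2075 CPM at day 1, and 14 of the 25 genes with the highest ratios had most of their day 1 UMIs in these barcodes. Notum, Lsamp and Abca15 were among them. What the barcodes hold was not tested, and counts are given with and without them.

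**Figure D2:**
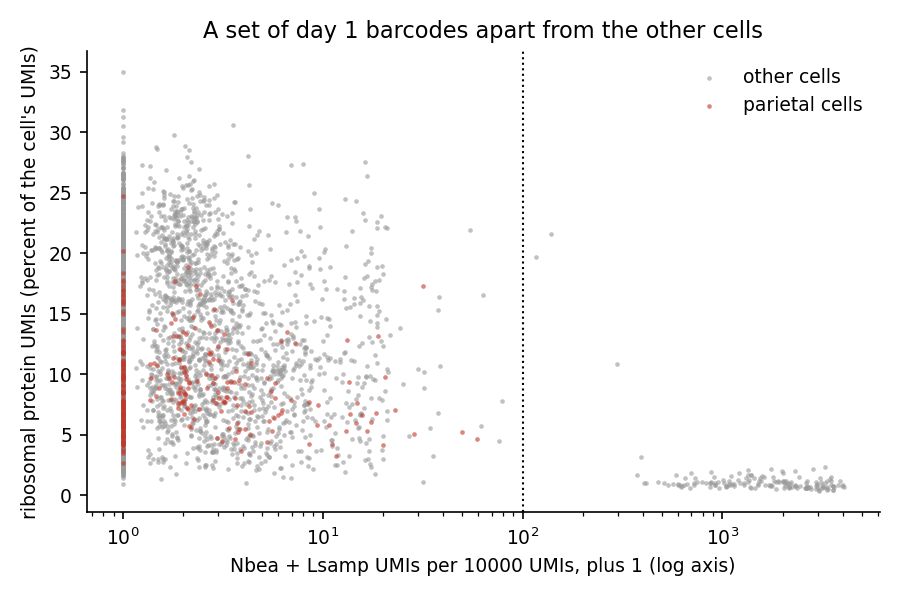
Each point is 1 day 1 cell, placed by its Nbea and Lsamp UMIs per 10000, plus 1 (horizontal log axis), and the share of its UMIs from ribosomal protein genes (vertical axis, percent), with parietal cells in red. Nearly all of the 157 barcodes right of the dotted line at 100 lie near 1% ribosomal protein UMIs, and none of them is a parietal cell.

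Across genes that reached 20 CPM in one or both libraries, levels are compared as the log2 ratio of CPM + 1, and a gene is counted as higher or lower where that ratio passed 2-fold. In parietal cells 661 of 5574 genes were higher at day 1 (11.9% of genes compared) and 178 lower (3.19%). The day 1 level of 636 of the 661 lay above all 3 other libraries, and that of 160 of the 178 below all 3. The call itself fixes the place relative to the untreated library, so here and below only the day 3 libraries add to such counts. In the other cells 1973 of 5050 genes were higher (39.1%) and 106 lower (2.1%), and without the Nbea and Lsamp barcodes 1894 of 4953 were higher (38.2%) and 109 lower (2.2%). In all cells 1470 of 5157 were higher (28.5%) and 159 lower (3.08%), or 1412 of 5085 (27.8%) and 158 (3.11%) without those barcodes. The median gene was itself above 0, at 0.24 on the log2 scale in parietal cells, 0.77 in other cells and 0.59 in all cells. With that median subtracted, 412 genes were higher and 352 lower in parietal cells, 406 and 416 in other cells, and 376 and 460 in all cells. With a TMM factor the counts were 280 and 569, 356 and 472, and 293 and 585 in the same order. Each list below is therefore read against the median of all genes in the same cells. In the other cells, fewer cells of a type and less RNA per cell cannot be told apart from summed counts alone.

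Among the lists with at least 20 genes compared in parietal cells, the NRF2 program lay furthest from the median gene, at 1.14 above it. Some shorter lists lay further, such as pancreatic-type enzymes at -4.74, chief cell genes at -2.46 and metaplasia markers at 1.15 relative to it. Integrin and laminin genes at 1.12, glucocorticoid genes at 1.11 and cholesterol genes at -1.10 were close. Of 38 listed NRF2 genes 35 were compared in parietal cells. Of these, 26 were at least 2-fold higher and none lower, beside 11.9% and 3.19% of all genes. The NRF2 list had a median log2 ratio of 1.39 against 0.24 for all genes. In 25 of the 26 the day 1 level lay above all 3 other libraries, a share like the 636 of 661 among all higher genes. The summed level of the list was 5723 CPM untreated, 14946 at day 1, 7105 at day 3 and 6613 at day 3 with AREG. In the other cells the same list summed to 13683 CPM untreated and 14434 at day 1. Of its 33 members compared there 8 were higher, beside 39.1% of all genes. They were Gclc, Txnrd1, Srxn1, Gsr, Tkt, Akr1b8, Cbr3 and Abcc1. Its median there was 0.48, which is -0.30 relative to the median gene and so changes sign once the median is subtracted.

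Gclc, the catalytic subunit of glutamate-cysteine ligase and the rate-limiting step of glutathione synthesis, was the third highest named gene in parietal cells. It measured 25.6 CPM (95% interval 22.9 to 28.6) untreated, 819 CPM (785 to 853) at day 1, 46.7 at day 3 and 44.5 at day 3 with AREG, a log2 ratio of 4.94. The day 1 library stood alone, and the day 3 libraries lay near the untreated one. Gclm, the modifier subunit of the same enzyme, differed less, with 379 CPM untreated and 622 at day 1, a log2 ratio of 0.71. Thinned to 500 UMIs per cell, a Gclc UMI was found in 1.5% of untreated and 30.2% (25 to 35.8) of day 1 parietal cells, and unthinned in 6.78% and 65.4%. In the other cells, without the Nbea and Lsamp barcodes, the thinned shares were 1.78% and 7.69%. The level of Gclc in other day 1 cells was 142 CPM, and the free RNA expected in day 1 parietal cells, estimated from near-empty barcodes and the pit cell products, was 22.9 CPM, both far under the parietal level.

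Srxn1, sulfiredoxin, which restores over-oxidized peroxiredoxins, had 9.77 CPM untreated, 207 at day 1, 22 at day 3 and 25.3 with AREG. Akr1b8, an aldo-keto reductase that clears reactive aldehydes, had 18.7, 446, 88.4 and 59.8 CPM in the same order. Cbr3, a carbonyl reductase, had 34.7, 370, 69.5 and 61.1 CPM. For each of these 3 genes the day 1 library stood far above the other libraries in parietal cells. All 3 were also past 2-fold higher in other cells. Without the Nbea and Lsamp barcodes, a thinned UMI was found in 0.499% of untreated and 2.71% of day 1 other cells for Srxn1. The shares there were 1.86% and 8.53% for Akr1b8, and 6.16% and 19.2% for Cbr3. The thioredoxin arm was also higher in parietal cells. There Txnrd1, thioredoxin reductase, had 91.0, 423, 118 and 124 CPM (log2 2.20), and Gsr, glutathione reductase, had 55.2 and 227 CPM (2.02). Sqstm1, the autophagy receptor that binds KEAP1, had 87.4 CPM untreated and 456 at day 1, with 83.9 and 88.2 at day 3. Enzymes that supply NADPH followed with smaller ratios, with Pgd at 1.5, G6pdx at 1.39 and Me1 at 1.83.

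Promoters of 3 genes of the NRF2 list are shown. They were chosen because they carry matches to the core of the antioxidant response element in the 250 bases before the gene start. Of the genes named above, Akr1b8, Cbr3, Sqstm1, Pgd, Me1 and Tkt carried no match there, while Gclm and G6pdx each carried 1. For Gclc, Gsr and Abcc1 no promoter was among the sequences used, so they were not searched. Letters are RefSeq sequence of build GRCm38.p6 on the strand of the gene, and capitals mark each match to TGACNNNGC or TGAGNNNGC on either strand.
Srxn1, chr2:152105274-152105523, plus strand: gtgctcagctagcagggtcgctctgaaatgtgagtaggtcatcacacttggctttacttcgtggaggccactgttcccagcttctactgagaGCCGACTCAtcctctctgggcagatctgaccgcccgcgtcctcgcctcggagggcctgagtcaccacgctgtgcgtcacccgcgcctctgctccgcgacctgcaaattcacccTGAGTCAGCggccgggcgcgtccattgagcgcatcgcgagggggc
Txnrd1, chr10:82858956-82859205, plus strand: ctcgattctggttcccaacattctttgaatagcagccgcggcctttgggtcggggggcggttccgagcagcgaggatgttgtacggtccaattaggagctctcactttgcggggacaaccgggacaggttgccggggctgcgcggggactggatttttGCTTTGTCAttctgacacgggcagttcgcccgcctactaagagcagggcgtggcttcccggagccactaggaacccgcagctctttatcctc
Osgin1, chr8:119436897-119437146, plus strand: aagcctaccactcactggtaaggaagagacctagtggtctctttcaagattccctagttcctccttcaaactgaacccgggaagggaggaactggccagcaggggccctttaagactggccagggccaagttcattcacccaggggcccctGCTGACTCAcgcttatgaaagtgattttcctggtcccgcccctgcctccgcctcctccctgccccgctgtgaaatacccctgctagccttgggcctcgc
Srxn1 had 2 matches, starting 158 and 45 bases before the start, while the Txnrd1 promoter shown had 1 at 92 bases and Osgin1 1 at 99 bases. The table holds 2 further Txnrd1 promoters, neither with a match. Osgin1, an oxidative stress-induced growth inhibitor, was at 8.45 CPM untreated and 60.3 CPM at day 1 in parietal cells, a log2 ratio of 2.70. Among 33 list genes with a RefSeq promoter, 14 had a match (42.4%), against 6932 of 27025 genes in all (25.7%). Among the list genes that were higher in parietal cells 8 of 21 had one, and among the other list genes, which include any below 20 CPM in both libraries, 6 of 12. A match is a description of these letters and not a bound site.

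Glutathione S-transferases, which join glutathione to electrophiles, were divided between the cell kinds. In parietal cells Gsta2 had 30.7 CPM untreated and 185 at day 1 (log2 2.55), and Gstm1 had 225 and 988 (2.13). In other cells Gstm1 had 497 and 477 CPM, a log2 ratio of -0.06. Gsta4 was higher in parietal cells, at 744 and 1743 CPM (1.23, under 2-fold once the median was subtracted), and differed by under 2-fold in other cells, at 3130 and 2549 CPM (-0.30). Gpx2, an epithelial glutathione peroxidase, had 164 and 663 CPM in parietal cells (2.01), and Abcc4, an exporter of conjugates, had 5.00 and 40.6 CPM (2.79). The genes for the factor and its inhibitor differed little in parietal cells, with log2 ratios of 0.21 for Nfe2l2 and 0.50 for Keap1. Cat (catalase), a peroxisomal enzyme on the list, went the other way, from 266 to 178 CPM (-0.58). Hmox1, heme oxygenase, counts among the 26 higher genes, but 1 cell held 72.1% of its UMIs and it is not read as a change of the group.

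**Figure D3:**
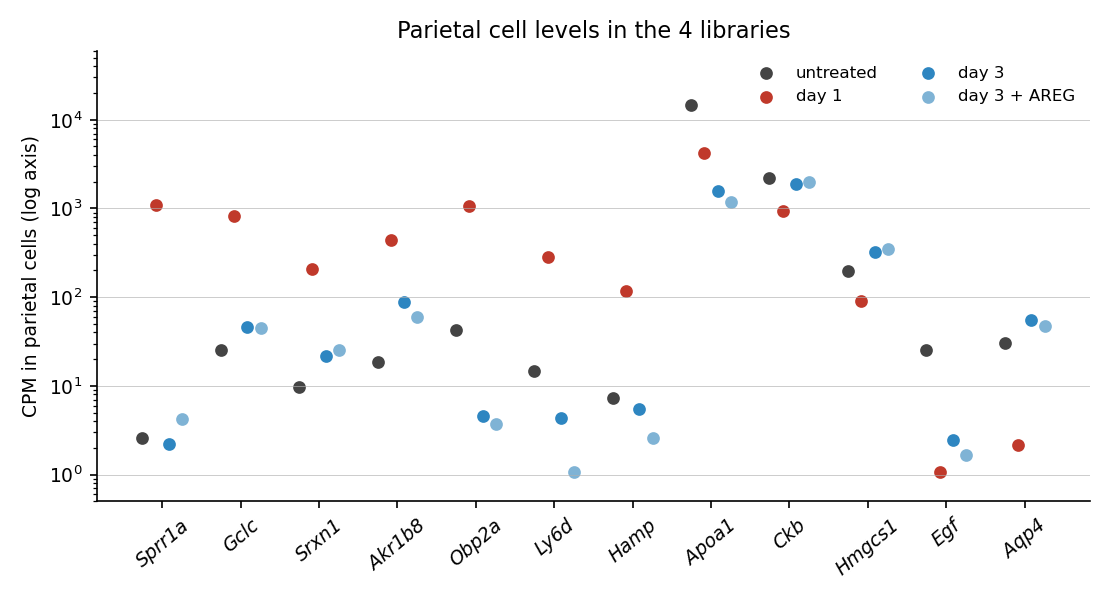
Level in parietal cells (CPM, log axis) of 12 genes in the 4 libraries, each point being 1 library. Sprr1a, Gclc, Srxn1, Akr1b8, Obp2a, Ly6d and Hamp are highest at day 1, while Ckb, Hmgcs1, Egf and Aqp4 are lowest there and Apoa1 lies between the untreated and day 3 levels.

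The parietal cells at day 1 were divided by their pump level, the value that also chose them. The summed NRF2 list was highest where the pump was lowest. Bands of pump UMIs, chosen after the values had been seen, held 85 day 1 cells from 50 to 100 per 10000, 123 from 100 to 200 and 90 at 200 or more. Gclc measured 1270, 907 and 240 CPM from the lowest to the highest band, and the summed NRF2 list 20167, 15490 and 8870 CPM. In untreated parietal cells the summed list also declined, with 9335, 7662 and 4822 CPM over 243, 583 and 3644 cells, while Gclc stayed between 23.5 and 32.9 CPM. Sprr1a, a cornified envelope protein of injured epithelium, had 2096, 999 and 204 CPM in the day 1 bands. In the lowest band both Gclc and Sprr1a were above the level of the other day 1 cells, 142 and 429 CPM. Median pit cell products in the bands were 74.5, 47.2 and 40.9 of 10000 UMIs at day 1, and 221, 115 and 76.7 untreated. S100a6, which was higher in other day 1 cells, had 5028, 2547 and 651 CPM in the day 1 bands. In the untreated bands it had 234, 144 and 33.8 CPM. The part of RNA from other cells in each band was not tested.

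Obp2a, a lipocalin that carries odorants and other small lipophilic molecules, ran the other way through the bands, with 547, 877 and 1811 CPM. It measured 42.1 CPM untreated, 1055 (1017 to 1094) at day 1, 4.64 at day 3 and 3.75 with AREG in parietal cells, a log2 ratio of 4.61. Both day 3 libraries lay under the untreated one. A thinned Obp2a UMI was found in 24.8% of day 1 parietal cells and 0.634% of other day 1 cells without the Nbea and Lsamp barcodes. Hamp, the iron hormone hepcidin, had 7.27 CPM untreated, 119 at day 1, 5.51 at day 3 and 2.57 with AREG, while its paralog Hamp2 had 1657, 1319, 114 and 92.7 CPM. Because the 2 genes are near copies, reads may be split between them in a way that cannot be checked here. Of 8 iron and metal genes compared in parietal cells 3 were higher and 1 lower, beside 11.9% and 3.19% of all genes. The lower one was Tfrc, the transferrin receptor, which had 146 and 58.5 CPM (log2 -1.31) and was higher at day 3, at 368 and 435 CPM. The metallothionein Mt1, which binds zinc and copper, had 884, 3205, 1647 and 1628 CPM over the 4 libraries.

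Many of the other highest parietal genes are known from injured epithelium. S100a6, a calcium-binding protein, had 70.8 CPM untreated and 2742 at day 1 in parietal cells, beside 14494 CPM in other day 1 cells. Free RNA could hold an estimated 1573 CPM of that day 1 level, and in parietal cells with few pit cell products S100a6 still stood at 30.4 and 1781 CPM. Lgals3 (galectin-3) had 4.85 and 115 CPM with an estimated 59.2 CPM of free RNA, and Krt7, a simple-epithelium keratin, 12.7 and 132 CPM with 40.4. For Clu (clusterin), a secreted chaperone, the levels were 774 and 4116 CPM with 665 of free RNA. The part of free RNA and of doublets in these 4 genes was not tested further. Ly6d, a GPI-anchored surface protein, had 14.5, 281, 4.39 and 1.07 CPM over the 4 libraries. Wnt4, a secreted Wnt ligand, had 0.782 and 40.9 CPM, and Plaur, the urokinase receptor, 1.02 and 38.0 CPM. Cyp2b10, a drug-inducible cytochrome P450, had 1.56 CPM untreated, 49.5 at day 1, 7.08 at day 3 and 6.49 with AREG. Spock2 (testican-2), Anxa2 (annexin A2, a membrane-binding protein) and the olfactory receptor gene Olfr1033 completed the highest 15, with log2 ratios of 4.16, 3.93 and 3.66. Of 27 S100, annexin and galectin genes 19 were compared in parietal cells. Of these 11 were higher and 2 lower, beside 11.9% and 3.19% of all genes. The list median was 1.23, or 0.99 above the median gene.

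Lgals1 and Lgals2 were the 2 lower members of that list, with log2 ratios of -1.52 and -1.71. Among genes with at least 500 CPM in both libraries, others were higher. Ctse, the aspartic protease cathepsin E, had 1144 and 2796 CPM, above the 547 and 516 CPM of the day 3 libraries. Anxa10, an annexin of gastric epithelium, had 618 and 1451 CPM, while Chd9 (a chromatin remodeler) and Tex14 had log2 ratios of 1.89 and 1.59. Subtracting the median took Anxa10 under 2-fold.

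Genes of acid secretion other than the pump were lower in part. Of 16 compared, 4 were lower and 1 higher, beside 3.19% and 11.9% of all genes. The list median was -0.54 against 0.24 for all genes. Aqp4, a basolateral water channel of parietal cells, had 30.3 CPM untreated, 2.15 (0.79 to 4.69) at day 1, and 55.1 and 46.7 at day 3. Kcnq1, the potassium channel that recycles potassium for the pump, had 312, 141, 363 and 372 CPM. The chloride channel gene Clic6 had 1434 and 693 CPM and Kcnj16, another potassium channel, 485 and 231 CPM, both close to the 2-fold limit. Aqp4 and Kcnq1 were lowest at day 1 among the 4 libraries, while Kcnj16 was as low or lower at day 3, with 215 and 165 CPM. Cckbr, the gastrin receptor, was the higher member, with 10.2, 49.2, 12.7 and 12.9 CPM. Slc26a7, a chloride-bicarbonate exchanger, measured 26.7 and 26.6 CPM, with 4.07 and 4.02 at day 3.

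Among energy genes, 1 of 19 fuel use and energy buffer genes was lower and 1, the coactivator Ppargc1a (log2 1.05, under 2-fold once the median was subtracted), higher, beside 3.19% and 11.9% of all genes. Ckb, brain-type creatine kinase, which buffers ATP, was the lower one and had 2191 CPM untreated and 941 at day 1 (log2 -1.22), with 1871 and 1989 at day 3. Of 47 nuclear-encoded respiratory chain and ATP synthase subunits all were compared, 5 had a positive log2 ratio and 2 were lower past 2-fold, namely Ndufb10 at -1.07 and Atp5g1 at -1.12, a share near that of all genes. Their median was -0.42, or -0.66 relative to the median gene. The summed level of these subunits depended on the pump band at both times, with 63793, 69510 and 87904 CPM at day 1 and 49247, 68698 and 102082 CPM untreated. Within the lowest band the day 1 level was therefore the higher one, and within the highest band the lower one. The untreated lowest band held more pit cell products than the day 1 one, and the effect of this on these sums was not tested. The mitochondrially encoded subunits had a median of 0.06, which is -0.18 relative to the median gene.

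Apoa1, apolipoprotein A-I of high-density lipoprotein, had 14730 CPM untreated and 4236 at day 1 in parietal cells (log2 -1.80), and 1572 and 1185 at day 3. In the highest pump band it measured 17685 and 7658 CPM. Egf, epidermal growth factor, had 25.2 CPM untreated and 1.08 (0.222 to 3.15) at day 1, resting on 3 UMIs, with 2.44 and 1.66 at day 3. Both genes were also low at day 3, when the share of parietal cells was again near the untreated one. Apip, an enzyme of the methionine salvage pathway, had 38.5, 6.82, 28.9 and 27.7 CPM. Hspa1a, the inducible HSP70, had 138, 33.0, 177 and 144 CPM. Of 16 cytosolic chaperone genes 3 were lower at day 1 and none higher, beside 3.19% and 11.9% of all genes. Digestive products of other cells were among the lowest genes in parietal cells, such as Clps (colipase, a cofactor of lipase) at 7931 and 166 CPM, while near-empty barcodes held Clps at 71268 and 2990 CPM. For 16 of the 178 lower genes the free RNA estimate exceeded 50% of the untreated level, and these are not read as changes within parietal cells.

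Cholesterol synthesis differed between the 2 kinds of cells. In parietal cells all 16 compared genes of 21 had a negative log2 ratio, and 4 passed 2-fold, beside 3.19% of all genes. The list median was -0.86, or -1.10 relative to the median gene. The summed list had 1078 CPM untreated, 605 at day 1, 2020 at day 3 and 2199 with AREG, so that day 1 was the lowest library. Hmgcs1, at the head of the pathway, had 199 (191 to 206), 90.1 (79.3 to 102), 321 and 346 CPM, and Dhcr7, at its end, 37.8, 14.4, 84.8 and 97.4 CPM. Msmo1, a sterol oxidase, had 61.5, 25.5, 143 and 153 CPM.

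In the other cells 9 of 19 cholesterol genes were higher and none lower, beside 39.1% and 2.1% of all genes. Their median of 0.95 was only 0.18 above that of all genes in those cells. Sqle, squalene epoxidase, had 37.4 CPM untreated and 89.8 at day 1, and Lss, lanosterol synthase, 14.4 and 44.5 CPM. Both stayed above 0 but under 2-fold once the median of 0.77 was subtracted. The summed list had 991 and 1687 CPM, with 1642 and 1278 at day 3.

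**Figure D4:**
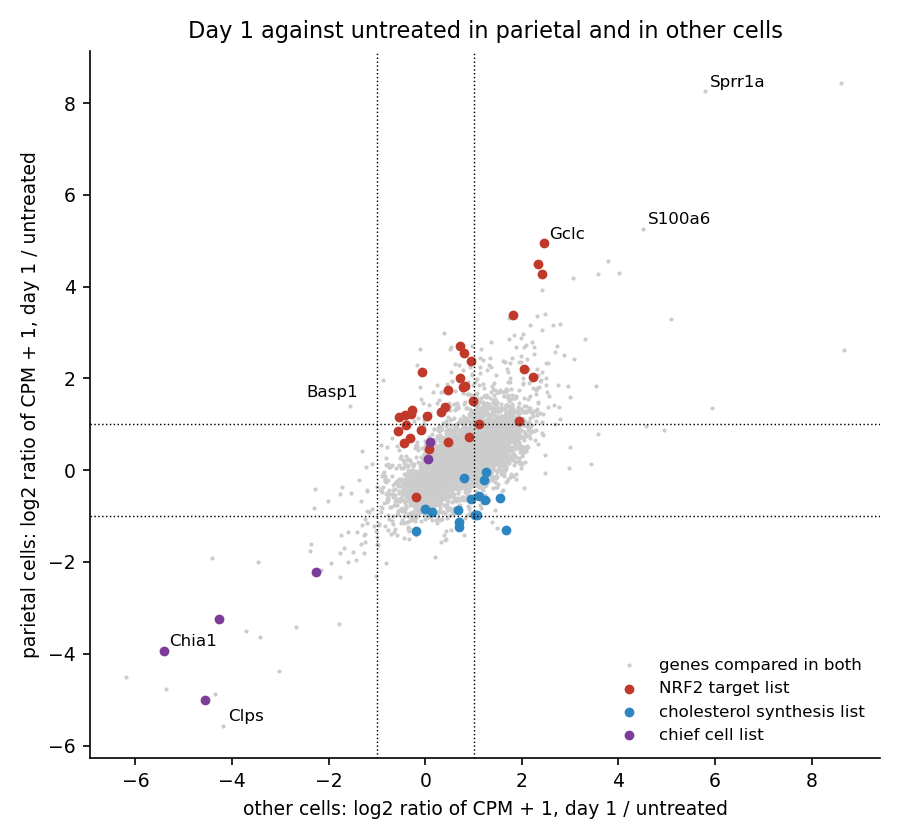
Log2 ratio of day 1 over untreated for each gene in other cells (horizontal axis) and in parietal cells (vertical axis), with dotted lines at 2-fold and the NRF2, cholesterol and chief cell lists in color. Basp1 (1.40 in parietal cells, -1.56 in other cells) lies past 2-fold in opposite directions, and the unlabelled points far to the right are genes such as Nbea.

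Of the genes known to be induced by glucocorticoids, 6 of 10 compared in parietal cells were higher and none lower, beside 11.9% of all genes. Their median was 1.36, or 1.11 above the median gene. In other cells 5 of 9 were higher and 1 lower, beside 39.1% of all genes higher, with a median of 1.47, or 0.70 above the median gene. Fkbp5, a chaperone partner of the glucocorticoid receptor, had 38.1, 140, 35.9 and 44.1 CPM over the 4 libraries in parietal cells and 26.5, 154, 26.8 and 27.4 CPM in other cells. In both kinds of cells the day 1 level of Fkbp5 lay above the 3 other libraries, which were near each other. Per1, a clock gene that glucocorticoids also induce, had 2.19, 25.5, 5.07 and 7.50 CPM in parietal cells. In other cells it had 1.49, 16.8, 10.8 and 15.1 CPM, where the day 3 levels came near that of day 1. The labels do not give the time of day at which tissue was taken. Pdk4, a brake on pyruvate oxidation, had 15.6 and 94.0 CPM in parietal cells and 2.05 and 21.2 CPM in other cells. The lower member in other cells was Cdkn1c, a cell cycle inhibitor, with 23.5, 3.74, 34.2 and 23.7 CPM. Among other cells with at least 2 Muc5ac UMIs the log2 ratio of Cdkn1c was near 0.

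Integrins and laminins attach epithelium to its basement membrane. Of 19 integrin, laminin and related genes 10 were compared in parietal cells and 6 were higher, beside 11.9% of all genes, with a median of 1.37, or 1.12 above the median gene. In other cells 10 of 12 were higher, beside 39.1% of all genes, with a median of 1.36, or 0.59 above the median gene. Itga3, an integrin subunit that binds laminin, had 10.4, 27.6, 14 and 12.7 CPM over the 4 libraries in parietal cells. In other cells Itga3 had 16.3, 49.1, 39.6 and 29.1 CPM. Lama5, a laminin alpha chain, had 3.28 and 28.0 CPM in parietal cells. Itgb4, the integrin subunit of hemidesmosomes, had 18.1, 64.1, 44.0 and 41.9 CPM in other cells, with day 3 between the 2 ends.

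Of 29 actin, myosin and tubulin genes compared in parietal cells 12 were higher and none lower, beside 11.9% and 3.19% of all genes. The list median was 0.90, or 0.66 above the median gene. Tmsb10, which binds actin monomers, had 237, 1124, 254 and 198 CPM there. In the other cells the cytoskeleton list had 9 of 29 higher, beside 39.1% of all genes. The list median there was 0.73, which is -0.04 relative to that of all genes. Tight junction genes, the seal between epithelial cells, had 5 of 7 higher in other cells, beside 39.1% of all genes, and 1 of 7 in parietal cells, a share near that of all genes there. Immediate early genes, which respond within minutes to signals and to tissue handling, had 9 of 15 higher in parietal and 9 of 15 in other cells, beside 11.9% and 39.1% of all genes. Their medians of 1.19 and 1.18 were 0.94 and 0.40 above the median gene. Klf4, a transcription factor of surface epithelium, had 38.2 and 158 CPM in parietal cells and 121 and 493 CPM in other cells.

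**Figure D5:**
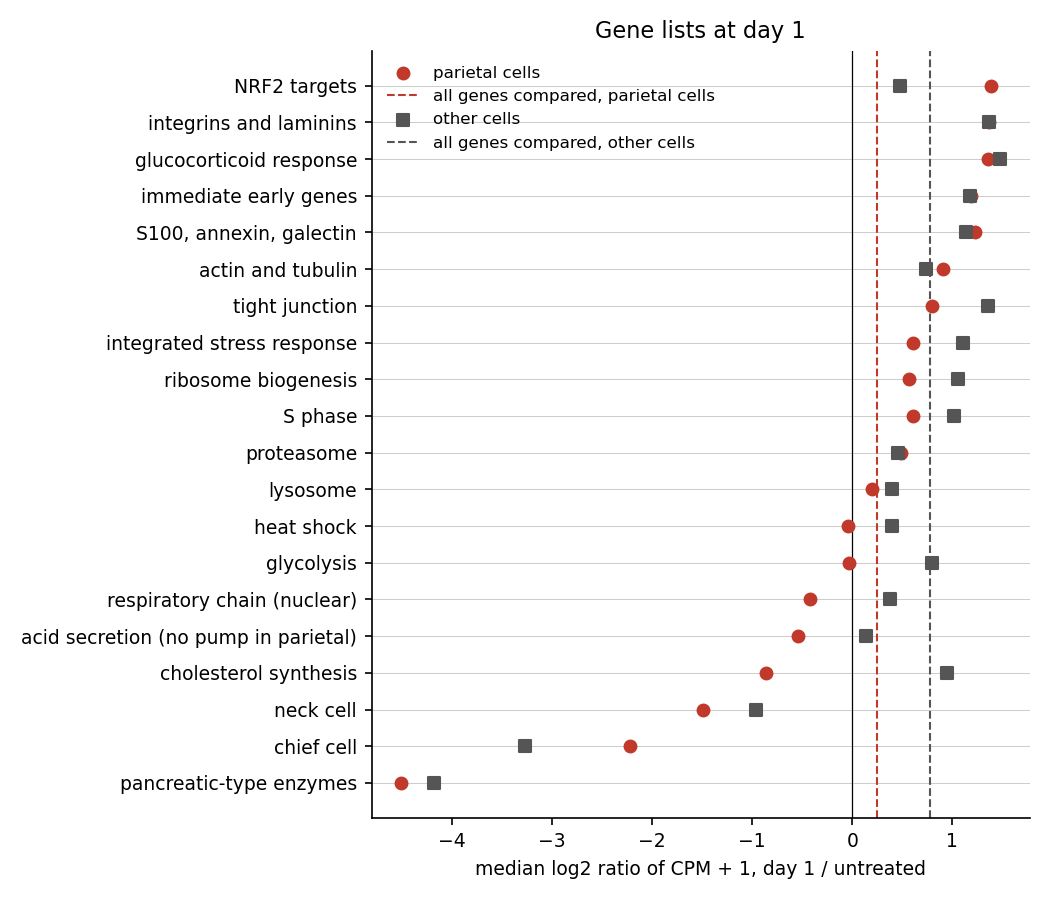
Median log2 ratio of day 1 over untreated (horizontal axis) of 20 gene lists in parietal cells (circles) and in other cells (squares), with the median of all genes compared as a dashed line for each. The NRF2 list is at 1.39 in parietal cells and 0.48 in other cells, and the cholesterol list at -0.86 and 0.95.

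Among the highest genes of the other cells that also ranked high without the Nbea and Lsamp barcodes, Krt7 measured 9.31, 348, 12.6 and 10.1 CPM over the 4 libraries. Msln, mesothelin, a surface glycoprotein of mesothelium and some injured epithelia, had 0.184, 121, 0.612 and 0.180 CPM. S100a10, the partner of annexin A2, had 11.9, 127, 3.52 and 3.49 CPM. For these 3 genes the day 1 library stood alone. Col18a1, which encodes a basement membrane collagen, had 1.10 and 21.6 CPM, and Sema3d, a guidance molecule, 1.10 and 28.5 CPM, with 7.85 and 4.24 at day 3. Sema3d had 23.5% of its day 1 UMIs in those barcodes, and its log2 ratio was 3.81 with them and 3.45 without. Stromal markers summed to 23.7 CPM untreated and 76.7 at day 1, and their part in these levels was not tested.

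Markers of metaplastic corpus epithelium had 5 of 7 higher and none lower in other cells, beside 39.1% of all genes higher, with a median of 2.03, or 1.26 above the median gene. Wfdc2, a secreted protease inhibitor, had 57.9, 252, 25.1 and 41.4 CPM, Mal2, a protein of apical transport, 27.7, 125, 58.3 and 50.6 CPM, and Dmbt1, a mucosal scavenger receptor, 50.5, 210, 124 and 151 CPM. All 3 were highest at day 1. The pit list was divided: Muc5ac, the surface mucin, had 1060, 3393, 2015 and 1503 CPM (under 2-fold once the median was subtracted), whereas Tff1, a trefoil peptide, measured 78975 and 78838 CPM, and Gkn1, a gastrokine, 68381 and 32683 CPM. Of 7 neck cell genes 3 were lower and 1 higher, beside 2.1% and 39.1% of all genes. Muc6, the neck mucin, had 55.0 and 96.4 CPM with 325 and 165 at day 3.

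Low genes in other cells were led by secretory products of chief cells and by digestive enzymes shared with the pancreas. Of 14 listed chief cell genes 6 were compared and 4 were lower, with a list median of -3.27. Of 18 listed enzymes 7 were compared and 6 were lower, with a median of -4.18. Endocrine products followed, with 5 of 6 compared genes lower. Over all genes compared in other cells 2.1% were lower. Chga, the granule protein chromogranin A, had 754, 117, 551 and 698 CPM, and Hdc, which makes histamine, 46.8, 7.71, 40.2 and 44.5 CPM. Both were lowest at day 1. The exception was Gast (gastrin), of which 1 cell held 48.9% of the UMIs. S100g, a calcium-binding protein, had 56.0, 2.16, 7.69 and 0.601 CPM, and Vtn, the matrix protein vitronectin, 32.4, 1.48, 8.50 and 12.5 CPM. Lgals2, a galectin, had 6044, 1893, 2722 and 3854 CPM.

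Some genes were lower over all cells while differing little within either kind. Hamp2 had 361 and 108 CPM in all cells (log2 -1.73), but -0.33 in parietal cells. Cdkn2b, an inhibitor of cyclin-dependent kinases, had 36 and 13 CPM in all cells, against 156 and 117 CPM in parietal cells. Kcne1, a potassium channel subunit, had 22.6 and 10.1 CPM in all cells, against 104 and 126 in parietal cells. Nr0b2, a nuclear receptor, had 25.3 and 11.5 CPM, against 104 and 113. In other cells the day 1 levels were 16.2 CPM for Hamp2, 5.03 for Cdkn2b, 1.31 for Kcne1 and 3.74 for Nr0b2, well under the parietal levels. By contrast Oxct1, which begins the use of ketone bodies, was at 262 and 49.2 CPM in all cells and was also lower within parietal cells, at 1053 and 345 CPM.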

How the data were processed

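Single cells of the corpus, dissociated with TrypLE and the ROCK inhibitor Y27632, were captured with PIPseq T20 3' chemistry, per the labels' protocols. The authors deposited a raw UMI count matrix of all barcodes for each library, and the submitters' processing notes name mouse build GRCm39 (mm39). Aligner and counter: not given in the sources used here. After the filters stated in the report, the counts of all cells of a kind were added up, expressed per 1000000 UMIs (CPM) and compared with a pseudocount of 1 CPM, in Python 3.11.15 with numpy 2.4.6, scipy 1.17.1 and pandas 2.3.3. A gene entered when it reached 20 CPM in one or both libraries. Exact Poisson and Clopper-Pearson 95% intervals cover counting error only. No doublets were removed, and no doublet caller was run. Free RNA was taken from barcodes under 50 UMIs and scaled to parietal cells by their pit cell products. Library totals ranged from 56007532 to 98893436 UMIs. Calculations were tested on simulated counts.

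The members, the 46 gene lists and the bands were chosen with earlier results of these data known. Of the listed genes, 2 were not found in the files. Named genes were, in each direction and leaving out mitochondrial, ribosomal and unnamed gene models, ranks 11 to 25 in all cells, the first 15 in parietal and in other cells, 10 abundant genes (at least 500 CPM in both libraries), genes with opposite ratios in the 2 kinds of cells, genes past 2-fold in all cells only, and list members. Some genes that this rule names are not reported here. A gene with over 25% of its UMIs in 1 cell was not read as a change of the group. In all, 19 alternatives were run, 2 of them chosen after seeing the data.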

Additional observations from a re-analysis of the deposited data

Results flagged for a closer look

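Genes past 2-fold in opposite directions in parietal and in other cells included Basp1, Septin9 and Apoa4. With 1 library a side, the difference between the 2 ratios was not tested. Basp1, a membrane-bound signaling protein, had a log2 ratio of 1.40 in parietal cells and -1.56 in other cells, a difference of 2.96. In parietal cells Basp1 measured 29.2 CPM untreated, 79.0 at day 1, 43.5 at day 3 and 36.4 at day 3 with AREG, and in other cells 43.8 CPM untreated and 14.2 at day 1. Septin9, a filament-forming GTPase of the cytoskeleton, had -1.14 and 1.37, a difference of -2.51, with 243 and 110 CPM in parietal cells and 12.7 and 34.6 CPM in other cells. For Apoa4, a lipoprotein component, the ratios were -1.26 and 1.48, a difference of -2.73, but 1 cell held 53.1% of its UMIs in the other cells. Without cells that had mitosis gene UMIs, the ratio of Apoa4 in other cells turned negative.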

How the results depend on the processing

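The counts of genes depended on scaling and on the limit for low values more than on which cells were kept. Higher and lower counts in all cells were 639 and 89 with at least 50 CPM in either library, 2923 and 297 with at least 5 CPM, and 784 and 270 with CPM taken without mitochondrial, ribosomal and the 20 most abundant genes. Subtracting the median gave 376 and 460, a TMM factor 293 and 585, and a pseudocount of 10 CPM left 742 higher. Lower genes numbered 266 by the mean over cells and 286 with cells thinned to 500 UMIs. In parietal cells the counts were 335 and 98 at 50 CPM, 1262 and 307 at 5 CPM, 377 and 107 with a pseudocount of 10, 412 and 352 with the median subtracted, 280 and 569 with TMM, and 1611 and 596 thinned, with 311 lower by the mean over cells. In other cells they were 772 and 49 at 50 CPM, 4020 and 207 at 5 CPM, 889 and 224 without the abundant genes, 406 and 416 with the median subtracted, and 356 and 472 with TMM, with 1122 higher at a pseudocount of 10 and 67 lower among cells with Muc5ac UMIs. A higher or lower limit by its construction tests fewer or more genes, and for the rest the cause was not tested. The untreated share of parietal cells was 30.4% with at least 1000 UMIs, 24.3% with at most 20% mitochondrial UMIs, 34.7% with no mitochondrial limit, and 30.4% and 34.7% with a pump limit of 100 and of 25. At day 1 the share was 5.01% with at most 20% mitochondrial UMIs, and 5.43% and 9.14% with those pump limits.

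Of 144 ratios of named genes past 2-fold, 98 stayed past it the same way under every alternative run for them, and of 40 list medians past 2-fold, 8 did. A sign turned for the neck list median in parietal cells, 0.019 when thinned, for Apoa4 in other cells, -0.34 without cells in the cycle, and for A4gnt, the neck mucin enzyme, 0.35 among cells with Muc5ac UMIs. Thinning leaves about 1 UMI of a 20 CPM gene per 100 cells, and with 298 parietal cells at day 1 this depth limits the low genes most. No paired analysis was possible because each group has 1 library.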

Other observations

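Several gene groups that the report does not describe had few members past 2-fold, and their medians are set beside the 0.24 of all genes in parietal cells and 0.77 in other cells. Endoplasmic reticulum folding genes had a median log2 ratio of -0.14 in parietal cells, with 1 of 33 lower, beside 3.19% of all genes. In other cells the median of these folding genes was 0.11, or -0.66 relative to all genes. There 5 of 33 were higher and 1 lower, beside 39.1% and 2.1% of all genes. Of 31 proteasome subunits 2 were higher in parietal and 2 in other cells, beside 11.9% and 39.1% of all genes. The subunit medians were 0.48 and 0.46. Antigen presentation genes had a median of 0.13 in other cells, or -0.64 relative to all genes, with none of 8 past 2-fold. Of 5 interferon-stimulated genes 2 were lower there, beside 2.1% of all genes, with a median of -0.50, or -1.27 relative to all genes. Oas1a, an antiviral sensor of double-stranded RNA, had 22.5 CPM untreated, 7.90 at day 1, 75.0 at day 3 and 44.1 at day 3 with AREG, and Ifi27 had 20.4, 8.28, 41.8 and 36.9 CPM. Il33, an epithelial alarmin, had 30.0, 10.5, 14.2 and 9.77 CPM in other cells.

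Ribosome assembly genes were higher in 12 of 21 in other cells, beside 39.1% of all genes. The list median was 1.05 against 0.77 for all genes. Gar1, of the complex that modifies ribosomal RNA, had 7.45, 37.9, 17.2 and 18 CPM there. The integrated stress response list had 8 of 12 higher in other cells and 5 of 12 in parietal cells, beside 39.1% and 11.9% of all genes. Its medians were 0.33 and 0.37 above the median gene. Ddit3 (CHOP), its best known effector of cell death, measured 26.4 and 24.8 CPM in parietal cells and 7.00 and 6.48 CPM in other cells.

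A few genes followed libraries in near-empty barcodes. Cul3 had 23.8 CPM there untreated, 2981 at day 1, 46.3 at day 3 and 1479 with AREG, and the gene model Gm47854 had 0.297, 11247, 0.248 and 5300 CPM. Tafa2 had 1138, 7.12, 4616 and 4.93 CPM.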
